A study of Mus musculus with 9 samples.

Results

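I3 is 1 of 8 clusters of cholinergic interneurons among 21 clusters of cholinergic nuclei from the adult mouse spinal cord, as the authors' label of each nucleus gives it. Its members are the 756 nuclei that carry this label, of 5375 interneuron nuclei, 16042 cholinergic nuclei with expression values and 34231 annotated nuclei. Nuclei were sorted for GFP from *Chat-IRES-Cre::Sun1-sfGFP* mice aged 8 weeks, 12 mice in all, heterozygous for the Cre and for the reporter, a GFP-tagged protein of the nuclear envelope. Cords were cut by level before tissue of the same level was pooled, and the sorted nuclei of 4 mice made up each of 3 replicates, so that there are 9 single-nucleus libraries, 1 per level (cervical, thoracic, lumbar/sacral) and replicate. Both sexes went into replicate 1 (2 mice of each), only males into replicate 2 and only females into replicate 3. The libraries of 1 number thus come from the same mice, and sex cannot be told apart from the pool. All groups carry the same 2 alleles and there was no treatment. Because Cre driven from *Chat* switches the reporter on for good, a nucleus in the sort need not have been using *Chat* when it was collected.

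Cholinergic interneurons of the spinal cord release acetylcholine within the cord and adjust the excitability of motor circuits, whereas skeletal and visceral motor neurons (MNs) send their axons out to muscles and to autonomic ganglia. C boutons, large cholinergic terminals on the somata of MNs, arise from 1 class of such interneurons. Some spinal interneurons use more than 1 transmitter: *Chat* makes acetylcholine, *Slc5a7* takes up choline for it, *Gad1* and *Gad2* make GABA, *Slc6a5* takes up glycine and *Slc32a1* loads GABA and glycine into vesicles.

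The values are corrected counts from SCTransform, a regression that evens out depth between nuclei, rounded to whole numbers. They were summed over the I3 nuclei of a library and scaled to 1000000, called CPM from here on. Libraries held 27 to 186 I3 nuclei. In library order, replicates 1 to 3, there were 78, 27 and 66 in cervical, 60, 73 and 59 in thoracic and 186, 109 and 98 in lumbar/sacral libraries. The median total of an I3 nucleus was 3888 to 6052 corrected counts in the lumbar/sacral libraries and 6054 to 15496 in the others, with cervical replicate 2 the highest, and the sums held 415980 to 743962 corrected counts. Mitochondrial genes took 0.0446 to 0.542% of the I3 sums and *Malat1*, a long nuclear RNA, 3.89 to 14.96%. Among the I3 nuclei, 1 was called as a doublet, and 3 carry a barcode that another library also holds.

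A pair of libraries went against their labels. *Hoxa9*, a patterning gene used from the thoracic cord downwards, was at 0, 48.1 and 0 CPM in the I3 nuclei of cervical replicates 1, 2 and 3 and at 20.3, 0 and 22.8 CPM in those of thoracic replicates 1, 2 and 3. In the other interneurons of the same libraries it was at 0.858, 16.5 and 0.257 CPM and at 12.8, 0.577 and 16.4 CPM. In both sets of nuclei, the library labelled cervical replicate 2 lay with the libraries labelled thoracic and the library labelled thoracic replicate 2 with those labelled cervical. Both belong to the male pool. No library was moved, and results by region are given with and without this pair.

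*Pax2*, the interneuron marker, was found in I3 at 272, 209 and 412 CPM in cervical, 268, 221 and 316 in thoracic and 315, 234 and 299 CPM in lumbar/sacral libraries. All 9 values lie above the mean of cluster I8, 9.55 CPM. *Pax2* had a corrected count in 79.3% ± 10.4 of I3 nuclei (SD, n = 9 libraries), against 5.86% of skeletal and 2.61% of visceral MN nuclei, whose median totals over all libraries, 7393 and 7519, were above the 6053.5 of I3. The 4 skeletal MN markers (*Tns1*, *Prph*, *Isl1*, *Mnx1*) summed to 2.40 to 22.8 CPM and the visceral pair (*Zeb2*, *Fbn2*) to 0 to 36.1 CPM in I3, with no marker above a mean of 7.66 CPM. *Slc17a6*, the vesicular transporter of excitatory neurons, stood at 0 to 14.9 CPM and in 3.35% of nuclei, which was under the 4.91% of skeletal MN nuclei. Of glial and vascular markers, those of oligodendrocytes (6 of 6 measured) summed to 34.5 to 56.9 CPM in the cervical and thoracic and 36.3 to 72.7 CPM in the lumbar/sacral libraries, microglial markers (3 of 4 measured, led by *P2ry12*) to 6.22 to 137 and 8.06 to 97.7 CPM, and those of astrocytes, endothelium and oligodendrocyte precursors to at most 7.27 CPM each.

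The cluster that lay closest to I3 was I4, and the gene that set I3 apart from every other interneuron cluster most was *Sox6*, a transcription factor with an HMG box that acts in the maturation of several classes of neurons. Because clusters were drawn from the same nuclei and genes, these differences are given as a description, without a test, as the mean over libraries of the difference within a library on the scale of log2(CPM + 5). Of 12967 genes compared, 203 differed by at least 1 between I3 and I4, 774 between I3 and I1, 892 for I2 and 1063 to 1689 for I5 to I8. *Sox6* was at 1054, 885 and 1151 CPM in cervical, 1097, 738 and 840 in thoracic and 1031, 733 and 822 CPM in lumbar/sacral I3 sums. I4 came next at 82.8 ± 44.7 CPM, and the other 6 clusters had means of 3.31 to 9.59 CPM. The mean of skeletal MNs was 30.2 ± 16.2 and that of visceral MNs 4.37 ± 2.26 CPM (SD, n = 9). *Sox6* had a corrected count in 96.1% ± 2.62 of I3 nuclei, 20.04% of I4 nuclei and 2.58 to 7.87% of those of the other I clusters. With every nucleus thinned to 3500 corrected counts, the share was 89.5%.

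Of the 12967 genes, 12 (0.0925%) were at least 1 higher in I3 than in every other I cluster and 16 (0.123%) at least 1 lower. The 12 are *Sox6*, *9530026P05Rik*, *Pde8a*, *Col27a1*, *Adamts9*, *Col6a1*, *Best3*, *1110004F10Rik*, *Mlxipl*, *Ildr2*, *Gpr101* and *Edaradd*, in the order of the gap to the next cluster. The last inside the limit was *Edaradd*, at 1.02, and the first outside were *Stxbp6*, at 0.98, and *Pnoc*, at 0.97.

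Transcripts of adjoining genes recur in this list. In GENCODE vM21 (GRCm38) *Sox6* lies on the reverse strand of chromosome 7 from 115470872 to 116038796, and *1110004F10Rik* begins 600 bases beyond its start on the forward strand, from 116039397 to 116105210. RefSeq starts *1110004F10Rik* 53983 bases further in. *9530026P05Rik*, an antisense RNA, runs on the forward strand of chromosome 6 from 92940329 to 93272979 and overlaps the start of *Adamts9*, a secreted protease of the matrix on the reverse strand from 92772699 to 92943492, by 3164 bases. The sources used here do not say whether counting used strand. Had it not, reads from the overlap could not be told apart, and both of these genes are given with that limit. Promoter windows of RefSeq for GRCm38.p6, from 250 bases before to 50 bases after a start, are shown for the leading gene and for the overlapping pair, since these members are higher in I3 than in the other I clusters. Capitals mark AACAAT or ACAAAG, short forms of the site of SOX factors, or their complements ATTGTT and CTTTGT.
*Sox6* (chr7:116038695-116038994, reverse strand): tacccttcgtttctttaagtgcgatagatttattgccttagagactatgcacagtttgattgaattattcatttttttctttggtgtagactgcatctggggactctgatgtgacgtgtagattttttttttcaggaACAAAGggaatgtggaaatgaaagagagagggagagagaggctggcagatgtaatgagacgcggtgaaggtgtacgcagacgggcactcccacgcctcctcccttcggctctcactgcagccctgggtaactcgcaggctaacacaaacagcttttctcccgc
*9530026P05Rik* (chr6:92940332-92940631, forward strand): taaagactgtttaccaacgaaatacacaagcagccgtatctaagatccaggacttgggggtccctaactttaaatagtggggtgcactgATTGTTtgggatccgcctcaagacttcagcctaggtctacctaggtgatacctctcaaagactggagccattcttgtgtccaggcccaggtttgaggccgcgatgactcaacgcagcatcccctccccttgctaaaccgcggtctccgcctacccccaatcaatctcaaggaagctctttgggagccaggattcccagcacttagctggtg
*Adamts9* (chr6:92943485-92943784, reverse strand): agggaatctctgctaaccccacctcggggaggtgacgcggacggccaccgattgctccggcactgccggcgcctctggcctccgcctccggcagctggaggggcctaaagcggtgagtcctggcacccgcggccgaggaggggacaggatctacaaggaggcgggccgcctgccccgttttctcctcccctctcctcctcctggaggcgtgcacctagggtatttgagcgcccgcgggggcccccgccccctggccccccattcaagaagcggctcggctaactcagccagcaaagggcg

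RefSeq gives *Sox6* 6 windows, of which the one nearest to its GENCODE start is shown. This window holds 1 match, that of *9530026P05Rik* 1 and that of *Adamts9* 0. A match is found in 27.0% of all 32851 RefSeq windows, and in 7 of 17 windows of the 11 listed genes that have one, the 6 of *Sox6* among the 17. A match of letters is no evidence of binding.

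*9530026P05Rik* was at 278, 144 and 360 CPM in cervical, 298, 184 and 159 in thoracic and 161, 127 and 127 CPM in lumbar/sacral I3 sums, against a mean of 44.6 ± 30.7 in I2, the next cluster, and 13.2 ± 11.3 in I4. *Adamts9* was at 21.8 ± 8.03 in I3 and 4.91 ± 3.76 CPM in I2 (SD, n = 9). These genes were not low in all other cholinergic nuclei, since visceral MNs had means of 320 ± 71.9 CPM of *9530026P05Rik* and 35.6 ± 14.3 CPM of *Adamts9*. *1110004F10Rik* was at 66.4 to 149 CPM in I3, at 49.7 ± 8.16 in I4 and at 30.2 to 34.5 CPM in the other I clusters.

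*Pde8a*, a phosphodiesterase that breaks down cAMP, was at 124 ± 19.8 CPM in I3, 36.9 ± 11.3 in I4 and 5.47 to 23.6 CPM in the other I clusters, and visceral MNs had 85.6 ± 22.8 CPM. Collagen genes are on the list with *Col6a1*, at 54.3 ± 25.0 in I3 and 16.5 ± 7.44 CPM in I1, and *Col27a1*, at 19.3 ± 11.8 against 2.96 ± 3.15 CPM in I4. *Col27a1*, *Adamts9*, *Mlxipl* and *Gpr101* were each higher in I3 than in the next cluster in 8 of 9 libraries. Skeletal MNs had more *Col27a1*, 58.8 ± 12.2 CPM. *Best3*, of the bestrophin family of anion channels, was at 28.4 ± 9.21 in I3 and 8.65 ± 2.92 CPM in I4, with at most 3.67 CPM in any other interneuron cluster or MN class. *Ildr2*, a membrane protein of the immunoglobulin family, was at 72.4 ± 29.3 in I3 and 31.8 ± 10.2 CPM in I4. *Mlxipl*, a transcription factor that responds to glucose, the orphan receptor *Gpr101* and *Edaradd*, an adaptor of ectodysplasin signalling, were at 11.5 to 12.4 CPM in I3 and at most 4.25 CPM in any other I cluster.

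The genes that were lower in I3 than in every other I cluster include receptors, ligands and adhesion molecules. *Sorcs2*, a sorting receptor that takes part in BDNF and proBDNF signalling, was at 8.30, 2.40 and 3.16 CPM in cervical, 0, 9.84 and 4.55 in thoracic and 5.38, 8.73 and 25.5 CPM in lumbar/sacral I3 sums. The other I clusters had means of 85.4 to 301 CPM, so the highest I3 library lay well under the lowest cluster mean. Its relative *Sorcs3* was at 55.4 ± 42.1 CPM against 176 to 990 CPM. *Dab1*, the adaptor that carries the reelin signal, was at 54.6 to 205 CPM in I3, at 449 ± 127 in I4 and at 811 to 3098 CPM in the others. *Nrg1*, a ligand of ErbB receptors, was at 1016 ± 315 in I3 and at 2043 to 12204 CPM elsewhere. The ephrin ligand *Efna5* (35.4 ± 25.1 CPM) and the ephrin receptor *Ephb1* (14.1 ± 7.99 CPM) had their next lowest values in I4, at 76.3 ± 47.8 and 38.4 ± 24.7 CPM. The other members are *Hs6st3*, *Brinp2*, *Itpr1*, *Cntn3*, *Sgpp2*, *Cntnap5c*, *Sema5a*, *Ptprd*, *Opcml* and *Caln1*. Against the next cluster, *Sorcs3* was lower in 7 of 8 libraries and *Itpr1*, *Cntn3*, *Cntnap5c*, *Sema5a* and *Efna5* in 8 of 9. *Caln1* was the last inside the limit, at -1.01, and *Aifm3* the first outside, at -0.998.

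**Figure D1:**
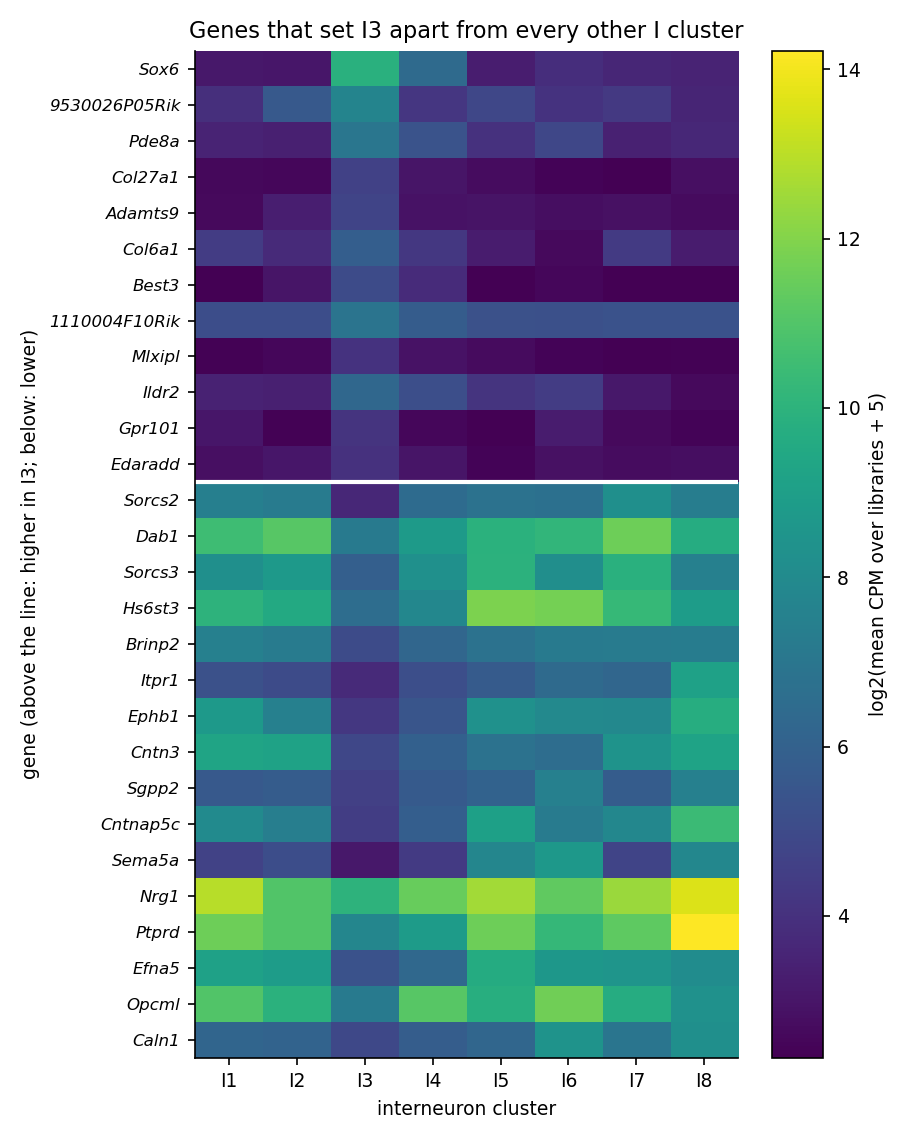
Mean level over libraries of the 12 genes at least 1 higher (top) and the 16 at least 1 lower (bottom) in I3 than in every other interneuron cluster, as log2(mean CPM + 5), for clusters I1 to I8. The *Sox6* square of I3 (928 CPM) stands out from its row, I4 (82.8 CPM) comes second, and in the lower rows the I3 column is the darkest.

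Set against I4 alone, 75 genes (0.578%) were at least 1 higher and 128 (0.987%) at least 1 lower in I3, 66 and 111 of them with the same sign in all 9 libraries. Among genes with 1 sign in all 9 libraries, the largest gaps upwards after *9530026P05Rik* and *Sox6* were *Cadps2*, a factor for the release of dense-core vesicles (208 ± 71.6 in I3, 24.3 ± 10.9 CPM in I4), *Vcan*, the matrix proteoglycan versican (70.9 ± 45.5 and 4.96 ± 4.82), *Gpc3*, a glypican (153 ± 46.5 and 22.4 ± 11.6), *Ntng1* (254 ± 53.9 and 54.6 ± 41.0), *Bdnf* (58.6 ± 25.9 and 7.12 ± 4.23) and *Trpm3* (950 ± 189 and 208 ± 94.0). Downwards, *Opcml*, an adhesion molecule of the IgLON family, led with 139 ± 36.2 CPM in I3 and 2247 ± 599 CPM in I4. It was followed by *Gm20754* (46.3 ± 19.6 and 414 ± 94.0), *Sorcs2*, *Man1a* (10.9 ± 5.89 and 105 ± 35.4), *Hs3st4* (16.1 ± 12.2 and 118 ± 34.5), the transcription factor *Runx2* (12.3 ± 12.6 and 96.9 ± 53.1), *Plxdc2* (25.3 ± 14.4 and 177 ± 65.6) and *Tmem132c* (8.22 ± 6.66 and 71.8 ± 14.4).

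Genes of each of 3 kinds of transmission, by acetylcholine, GABA and glycine, were found in the I3 sums, and all 3 kinds in 257 of the 756 nuclei. *Chat* was at 143 to 207 CPM in the 9 libraries and *Slc5a7* at 157 to 296 CPM, against I4 means of 144 and 182 CPM. *Gad2* was at 161 to 240 CPM in I3 and at most 6.82 CPM in I5, I6 and I8. *Gad1* was at 87.4 to 135 CPM, against at most 7.05 CPM in those 3 clusters. *Slc6a5*, the glycine transporter, was at 85.1, 185 and 93.1 CPM in cervical, 94.9, 207 and 114 in thoracic and 72.6, 156 and 91.3 CPM in lumbar/sacral libraries. The 3 libraries of the male pool are the highest of the 9, and I8 stood far above all of them with 874 CPM. *Slc32a1* was at 11.9 to 45.1 CPM.

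In the same nuclei, 85.6% ± 7.54 had a corrected count of *Chat* or *Slc5a7* (SD, n = 9 libraries), 83.4% ± 9.81 of *Gad1* or *Gad2* and 53.7% ± 17.8 of *Slc6a5*. The share of nuclei with all 3 kinds ran from 8.60% in lumbar/sacral replicate 1, the library with the lowest totals, to 70.4% in cervical replicate 2, that with the highest. It also went with the pool, since the male library had the largest share in each region (70.4, 57.5 and 40.4%). At like median totals, lumbar/sacral replicate 2 (male, 6052) had 40.4% and cervical replicate 1 (mixed, 6053.5) 26.9%. The parts of depth and pool were not tested. A cholinergic and a GABA gene without *Slc6a5* were found in 248 nuclei, a cholinergic gene and *Slc6a5* without a GABA gene in 52, a GABA gene and *Slc6a5* alone in 30, a cholinergic gene alone in 65, a GABA gene alone in 63, *Slc6a5* alone in 17 and none of them in 24. Depth moves with these shares across libraries, so a nucleus without a count may still use the gene. Skeletal MNs, which should lack them, had *Gad2* in 7.16%, *Gad1* in 5.27% and *Slc6a5* in 4.34% of nuclei, against 69.9, 51.5 and 53.7% in I3.

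Of 5 cholinergic genes compared, 1 (*Slc5a7*) was at least 1 higher in I3 than the mean of I1, I2 and I4, and of 8 genes of GABA and glycine 1 (*Slc6a5*, by 1.06 ± 0.50). In I4 *Slc6a5* was at 119 CPM, next to 122 CPM in I3, and in I1 and I2 at 48.0 and 27.9 CPM. Over all genes 1.45% were higher by this rule and 2.01% lower. Counts of gene families below follow the same rule, in which I1 and I2 each weigh as much as I4. Against I4 alone, 0.578% of all genes were higher and 0.987% lower. *Nos1*, which makes nitric oxide, was at 614 to 910 CPM in I3, 923 in I1, 516 in I4 and 96.4 CPM in I2, and in 89.7% ± 5.23 of I3 nuclei.

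**Figure D2:**
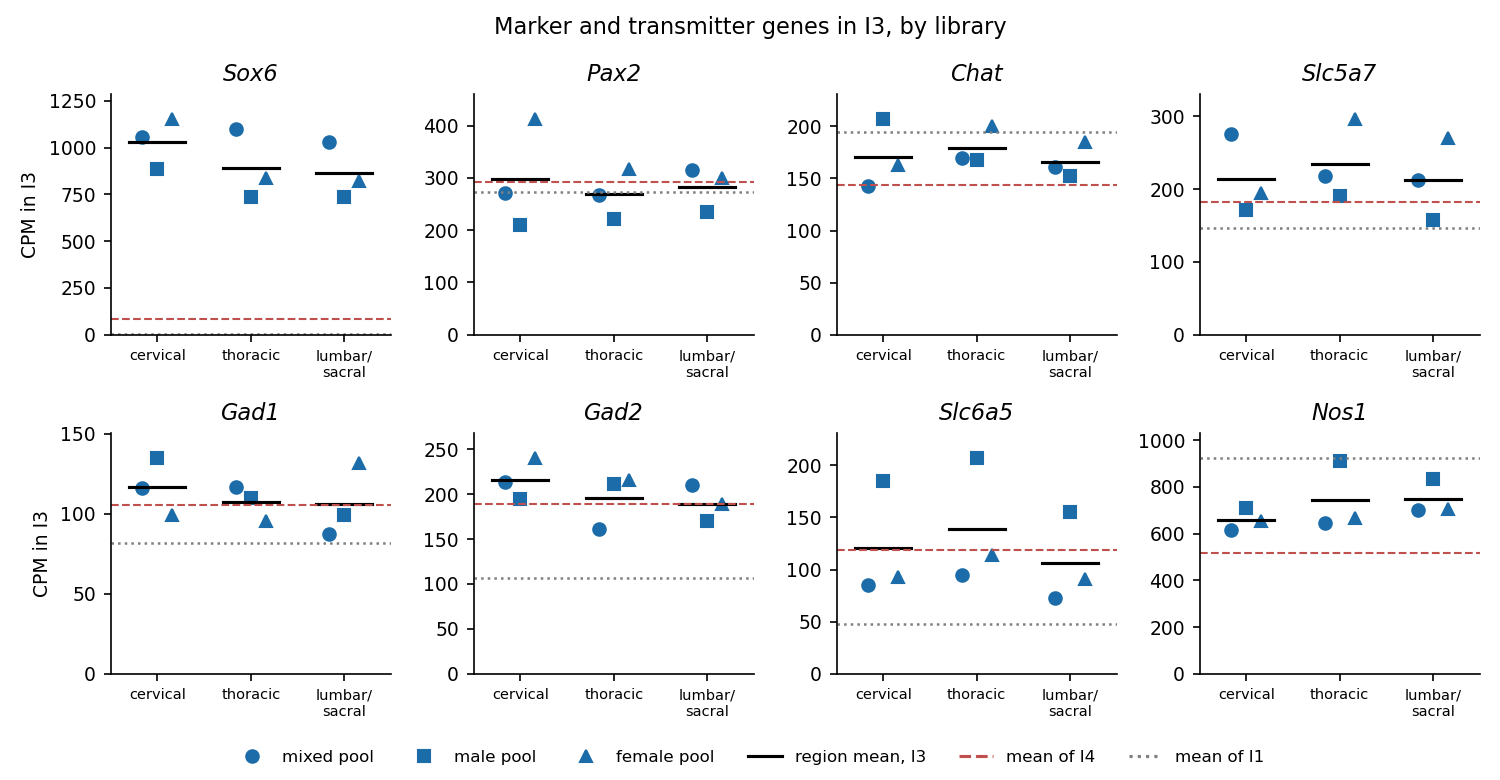
CPM in I3 of *Sox6*, *Pax2*, *Chat*, *Slc5a7*, *Gad1*, *Gad2*, *Slc6a5* and *Nos1* by region, with 1 symbol per library (circle, mixed pool; square, male pool; triangle, female pool), a bar for the region mean, a dashed line for the mean of I4 and a dotted line for that of I1. *Sox6* is the gene whose 9 points (733 to 1151 CPM) all lie far from both lines, and the squares of *Slc6a5* (156 to 207 CPM) lie above its other points.

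Among 13 transcription factors of spinal interneuron lineages, 1 was at least 1 higher in I3 and 3 were lower (0 and 3 against I4 alone). The reference was again the mean of I1, I2 and I4. *Bhlhe22* was the higher one, at 15.6 ± 12.3 CPM, near I4 (14.1 CPM) and above I1 and I2 (1.202 and 1.37 CPM). *Satb1*, which organises chromatin, was at 8.48 to 33.6 CPM in I3, against 323 in I1, 293 in I2 and 49.1 CPM in I4. *Pax8*, a relative of *Pax2*, differed little (132 ± 37.7 in I3, 149 CPM in I4). Of 42 other neuronal transcription factors 3 were higher and 4 lower (1 and 2 against I4 alone). *Nfib*, linked to neurons born late, was at 54.1 to 145 CPM in I3 and 105 in I4, against 18.6 and 21.7 CPM in I1 and I2. *Bcl11a* was at 0 to 4.73 CPM in I3 and 2.5 in I4, against 149 and 243 CPM. Of 6 Sox genes compared, *Sox6* alone was at least 1 apart.

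*Hcrtr2*, a receptor for orexin, was at 145 to 210 CPM in I3 and 199 in I4, against 6.27 in I1 and 42.4 CPM in I2. *Adra1b*, an alpha-1 adrenergic receptor, was at 84.9 to 229 CPM, against 73.2 in I4, 6.97 in I1 and 22.0 CPM in I2. *Htr7*, a serotonin receptor, was at 142 to 230 CPM, against 150, 54.8 and 10.2 CPM in I4, I1 and I2. Monoamine receptors numbered 3 higher and 0 lower of 15 compared (0 and 1 against I4 alone). Peptide and hormone receptors numbered 4 higher and 5 lower of 31 (2 and 3 against I4 alone). The receptor for corticotropin-releasing hormone, *Crhr1* (28.3 ± 8.65 CPM), was also among the higher ones. The substance P receptor *Tacr1* was among the lower, at 2.61 ± 3.02 CPM in I3, 9.34 in I4 and 10.5 in I1, against 155 CPM in I2. Of 13 neuropeptide genes, *Pnoc*, the precursor of nociceptin, and *Vgf* were higher (58.6 ± 30.1 and 44.6 ± 20.8 CPM, against 28.3 and 15.8 CPM in I4). *Penk*, the enkephalin precursor, was lower, at 4.87 ± 4.19 CPM in I3, 6.22 in I4 and 13.0 in I2, against 90.9 CPM in I1.

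Of 25 glutamate receptor genes 7 were lower and 2 higher (1 and 0 against I4 alone). The metabotropic receptor *Grm5* was at 36.1 to 191 CPM in I3 and at 197 ± 116 in I4, against 4696 ± 551 in I1 and 3738 ± 531 CPM in I2. *Grm7* (255 ± 89.2 CPM) and *Grm8* (70.3 ± 25.5 CPM) were low in the same way, with means of 415 and 91.5 CPM in I4 and of 2647 and 1909 CPM in I1. The kainate receptor *Grik2* was higher, at 2044 to 3738 CPM, against 2094 in I4, 1698 in I1 and 521 CPM in I2. Of 7 acetylcholine receptors, *Chrna7* (20.1 ± 10.3 CPM) and *Chrm3* (12.1 ± 7.08 CPM) were lower, against 314 and 294 CPM in I1. I4 was near I3 in both, at 21.5 and 17.2 CPM. *Chrm2* was higher on average over the 3 clusters (865 ± 258 CPM), although I1 had 1052 CPM.

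Of 42 potassium channel genes 2 were higher and 6 lower (0 and 0 against I4 alone). *Kcnq5*, a subunit of the M current, was at 2300 to 4129 CPM in I3 and 2144 ± 413 in I4, against 757 and 290 CPM in I1 and I2. *Kcnj6*, a channel opened by G proteins, was at 50.4 ± 12.7 CPM in I3 and 52.7 in I4, against 330 and 238 CPM in I1 and I2. The TRP channel *Trpc7* was at 99.9 ± 12.8 CPM in I3 and 95.3 in I4, against 2.89 and 3.82 CPM. *Piezo2*, a channel opened by touch and stretch, was at 3.61 ± 6.24 CPM in I3 and 3.03 in I4, against 735 in I1 and 36.3 CPM in I2. Phosphodiesterases and nitric oxide signalling had 7 of 23 genes higher and 3 lower (2 and 1 against I4 alone). The higher include *Pde8a*, *Pde10a* (1834 ± 244 CPM against 1229, 484 and 316 CPM in I4, I1 and I2) and *Pde1a* (334 ± 74.7 CPM). Of the lower, *Pde5a* was at 1.63 ± 1.76 CPM in I3, 0.523 in I4 and 4.60 in I1, against 161 CPM in I2.

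Matrix, guidance and adhesion genes went both ways. Of 37 collagen and matrix genes 6 were higher and 5 lower (4 and 5 against I4 alone). *Col18a1* was among the higher, at 227 to 492 CPM in I3 and 172 in I4 but 64.6, 12.2 and at most 15.5 CPM in I1, I2 and I5 to I8. Of 43 axon guidance genes 4 were higher and 8 lower (2 and 7 against I4 alone). The ephrin receptor *Epha5* was at 1462 to 1879 CPM in I3, 969 ± 98.0 in I4 and 152 and 143 CPM in I1 and I2. *Nrp1*, a receptor for semaphorins and VEGF, was at 0 to 22.1 CPM in I3 and 19.5 in I4, against 376 and 163 CPM. Of 42 synaptic adhesion genes 3 were higher and 9 lower (1 and 3 against I4 alone). *Dscaml1* is among the latter, at 6.92 ± 3.57 CPM in I3 and 12.3 in I4, against 498 and 585 CPM in I1 and I2. Of 23 cadherins 5 were higher and 6 lower (2 and 2 against I4 alone). Growth factor signalling had 6 of 27 higher and 2 lower (1 and 2 against I4 alone). The higher include *Bdnf* (22.8 to 111 CPM in I3, 7.12 in I4, 74.6 in I5) and *Erbb4*, the receptor for neuregulins (868 to 1585 CPM). *Erbb4* was higher still in I4, with a mean of 1694 CPM against 1209 CPM in I3. Its ligand *Nrg1* is among the lower.

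Region was not used to choose the nuclei here, although the authors integrated the data of the 3 regions before clustering. The share of I3 among interneuron nuclei was 10.1, 16.8 and 14.3% in cervical, 14.6, 11.1 and 13.9% in thoracic and 16.9, 15.2 and 14.5% in lumbar/sacral libraries. The regions overlap, and an exact permutation test over 1680 assignments of libraries to regions gave p = 0.443. Of all cholinergic nuclei I3 made up 2.76, 3.61 and 4.65% in cervical, 3.90, 4.19 and 3.62% in thoracic and 7.19, 6.16 and 5.50% in lumbar/sacral libraries. Every lumbar/sacral library lay above every other one. The same exact permutation test of the 3 regions gave p = 0.025, or 0.1 after Benjamini-Hochberg adjustment over the 4 denominators tried, which does not pass 0.05. That exact permutation p was 0.0833 with libraries exchanged within pools only and 0.0571 without the pair of male libraries. The contrast of lumbar/sacral with all other libraries, added after the data were seen, was 2.49 points with an exact two-sided permutation p of 0.0119, the smallest that 84 groupings can give, and 0.0476 after adjustment over the 4 denominators. Within pools its exact permutation p was 0.037, the smallest of 27 groupings, and without the pair of male libraries 0.0286, the smallest of 35. Within I1 to I4 the shares of I3 were 20.5% ± 3.59, 20.2% ± 1.82 and 20.5% ± 1.06 in the 3 regions, with an exact permutation p of 0.979. Within I3 and I4 together I3 made up 49.08, 51.66 and 49.0% in lumbar/sacral and 51.75 to 57.4% in the other libraries, so every lumbar/sacral library lay below every other one, the closest by little. The exact permutation p was 0.143 over the 3 regions (adjusted 0.286) and 0.0238 for lumbar/sacral against the others (-4.24 points, adjusted 0.0476). The latter exact permutation p was 0.0741 within pools, 0.0571 without the pair of male libraries and 0.0536 to 0.0893 without thoracic replicate 1, thoracic replicate 2 or any 1 lumbar/sacral replicate. Shares of sorted nuclei also depend on how many nuclei of other classes passed the sort.

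**Figure D3:**
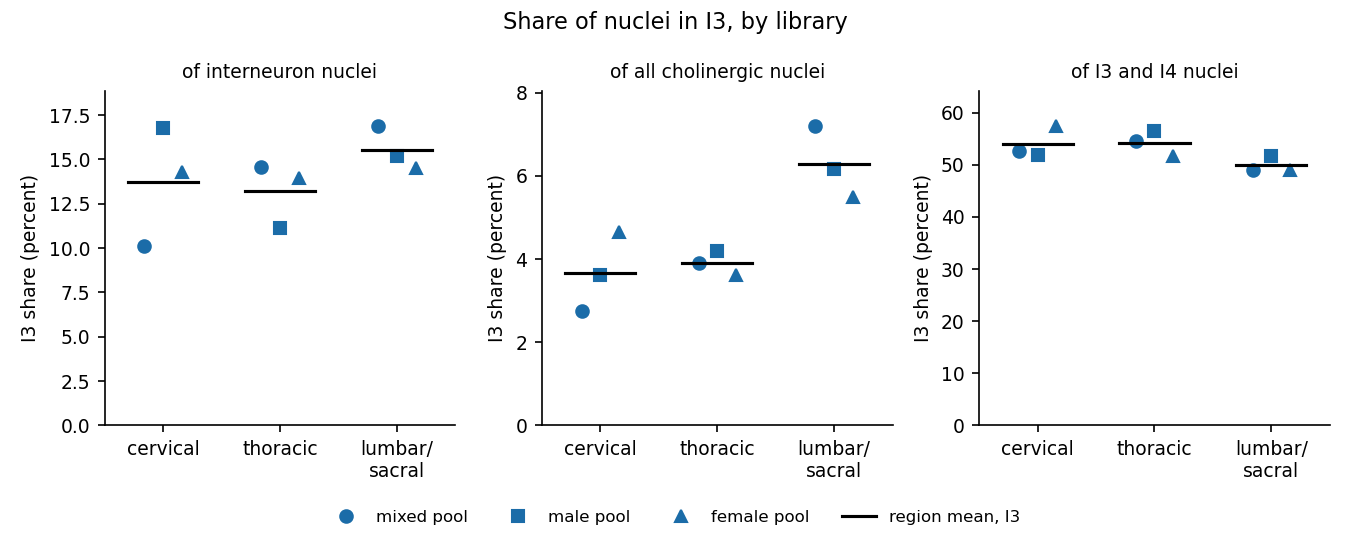
Share of nuclei in I3 in percent, by region, of interneuron nuclei (left), of all cholinergic nuclei (middle) and of I3 and I4 nuclei (right), with 1 symbol per library and a bar for the region mean. In the middle panel the 3 lumbar/sacral libraries (5.50 to 7.19%) lie above the other 6 (2.76 to 4.65%), in the right panel they (49.0 to 51.66%) lie below the other 6 (51.75 to 57.4%), and in the left panel the regions overlap.

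Few genes were called within I3 nuclei between the lumbar/sacral and the other libraries. limma was run on log2(CPM + 5) of the library sums over 9454 genes, with p values adjusted after Benjamini and Hochberg. Without a term for the pool it called 0 genes (0%), with 183 at an unadjusted p under 0.05. With the pool as a replicate block, which fits a design where the regions of 1 number come from the same mice, it called 16 genes (0.169%), 9 higher and 7 lower in lumbar/sacral libraries. In the block without the pair of male libraries 1 remained, *March1*. The 5 genes with the lowest p in the fit without the block, none of which passed there, were *Plcl1*, *Bcl2*, *Hoxd11*, *March1* and *Tshz2*, and all 5 were among the 16. Totals of lumbar/sacral nuclei were lower (above), and their part in these differences was not tested. In simulated data the fit without the block recovered 40.9% of 2-fold changes. Those data had the same spread for all genes and no pool effect, so the share recovered in the real data is not known. Genes that were not called may differ as well.

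*Plcl1*, a catalytically inactive relative of phospholipase C that binds inositol phosphates, was at 60.2, 76.9 and 78.9 CPM in cervical, 71.2, 34.4 and 29.6 in thoracic and 9.41, 2.91 and 10.6 CPM in lumbar/sacral I3 sums. The 3 lumbar/sacral libraries lie below all others, by a log2 fold change of -2.31 ± 0.28 (SE) with the block (limma adjusted p = 0.00158) and an adjusted p of 0.0715 without it. *Bcl2*, which blocks cell death, was at 99.6, 115 and 78.9, then 96.6, 112 and 102, then 39.0, 39.3 and 46.7 CPM in the same order. Its groups do not overlap either, and its log2 fold change was -1.18 ± 0.18 (limma adjusted p = 0.0136 with and 0.118 without the block).

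*Hoxd11*, a patterning gene of the caudal cord, was at 0 in all 6 cervical and thoracic sums and at 16.1, 17.5 and 17.0 CPM in the lumbar/sacral ones. Against an assumed floor of 3 corrected counts for the 6 sums together, the lumbar/sacral level of 16.8 CPM was 17.8-fold higher. As the values are model values, this fold is no lower bound. The log2 fold change was 2.13 ± 0.37 with the block (limma adjusted p = 0.0273 with and 0.123 without the block). *Hoxc5* was at 2.07, 7.21 and 1.58 CPM in cervical, 11.9, 0 and 11.4 in thoracic and 43.0, 36.4 and 29.7 CPM in lumbar/sacral sums, a log2 fold change of 2.09 ± 0.40 (limma adjusted p = 0.0445 with the block). Of 12 Hox genes tested these 2 were called with the block and none without it, and *Hoxa9*, with the values given above, had a log2 fold change of 1.47 ± 0.74 that did not pass (limma adjusted p = 0.999 without and 0.997 with the block).

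*March1*, a ubiquitin ligase of membrane proteins, was at 110, 79.3 and 117 CPM in cervical, 117, 49.2 and 47.8 in thoracic and 364, 173 and 229 CPM in lumbar/sacral sums. It was higher by 1.53 ± 0.19 (limma adjusted p = 0.00158 with the block), with an adjusted p of 0.0306 in the block without the pair of male libraries. *Tshz2*, a zinc finger transcription factor, was at 763 to 990 CPM in the 6 cervical and thoracic sums and at 1421, 1362 and 1452 CPM in the lumbar/sacral ones. The early B-cell factor *Ebf1* was at 305 to 475 and then 664, 566 and 713 CPM. They are the 2 called of 27 neuronal transcription factors in the list tested. *Trpc5*, a cation channel, was at 55.3 to 122 CPM against 183, 134 and 178 CPM, and *Ltbp1*, which binds latent TGF-beta, at 25.0 to 85.1 against 140, 108 and 89.2 CPM. *Spock3*, a proteoglycan, and *Rmst*, a long non-coding RNA, complete the 9 higher genes, and the *Rmst* groups overlap.

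Of the lower genes, *Htr1f*, a serotonin receptor coupled to Gi, was at 85.3 to 188 CPM in cervical and thoracic and at 75.3, 64.0 and 61.6 CPM in lumbar/sacral sums, and was the 1 called of 10 monoamine receptors tested. *Slc1a2*, a glutamate transporter, was at 79.6 to 147 against 56.5, 69.8 and 40.3 CPM, and *Zfp804a* at 205 to 368 against 191, 153 and 132 CPM. *Adcy8*, an adenylyl cyclase driven by calcium, was at 382 to 702 against 386, 275 and 274 CPM, which overlap. *mt-Nd4* is a mitochondrial gene, at 64.4 to 500 against 34.9, 160 and 153 CPM, and overlaps as well, and the mitochondrial share of the libraries, given above, moves with it. Of the 16 genes, which were called on these same sums, 13 had groups that do not overlap. Over all 9454 genes the 3 lumbar/sacral sums lay above all others in 0.867% and below them in 0.656%, and nothing is read from the difference. No gene of the lists of transmission, glutamate receptors, GABA and glycine receptors or potassium channels was called.

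*Sox6* itself was at 961 ± 163 CPM in the 6 cervical and thoracic and 862 ± 153 CPM in the 3 lumbar/sacral sums, a log2 fold change of -0.15 ± 0.18 (limma adjusted p = 0.999). None of the 12 genes that were higher in I3 than in the other clusters was called by region, with *9530026P05Rik* the farthest at -0.69 ± 0.27.

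**Figure D4:**
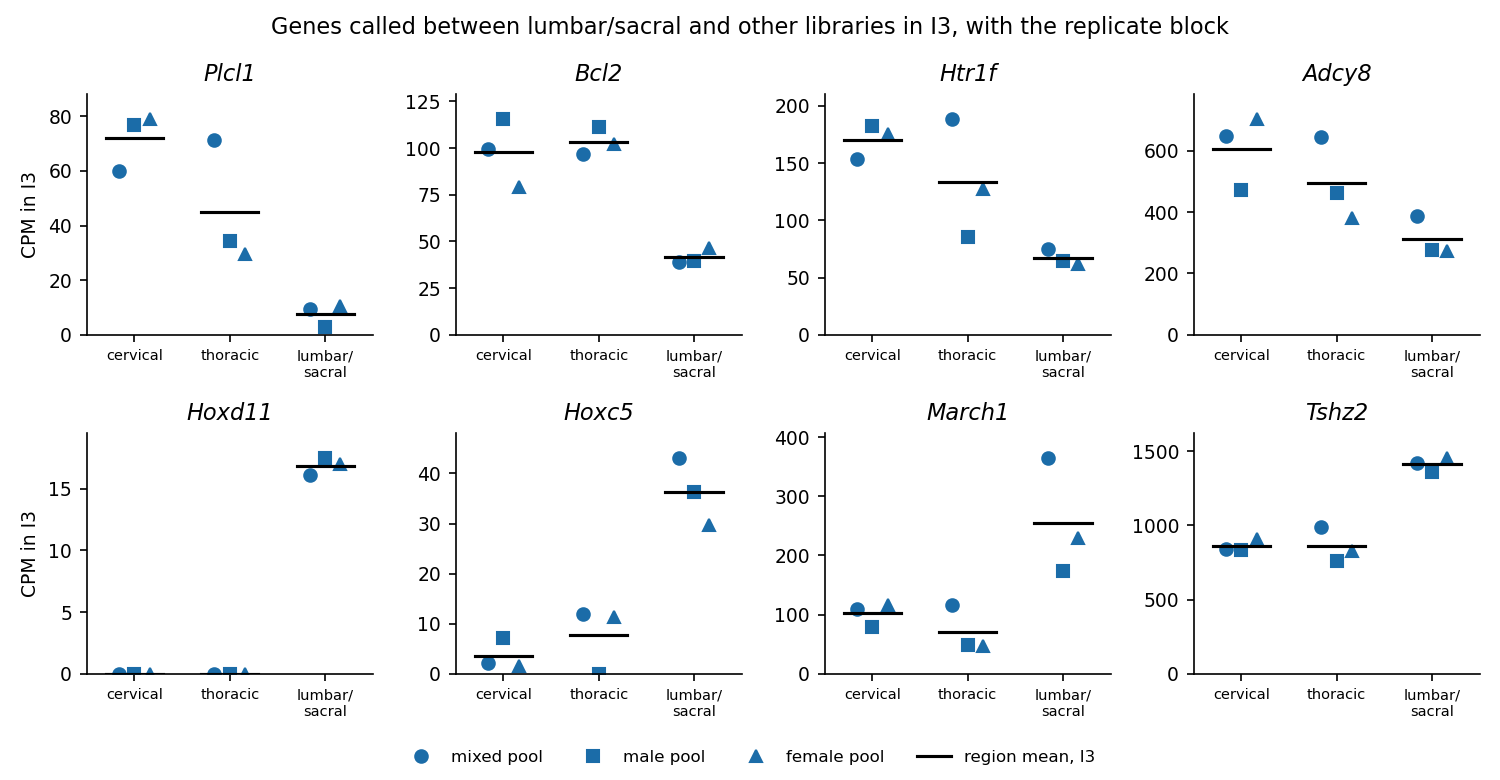
CPM in I3 of 8 genes called between lumbar/sacral and the other libraries with the replicate block, by region, with 1 symbol per library (circle, mixed pool; square, male pool; triangle, female pool) and a bar for the region mean. *Plcl1* and *Bcl2* are lower and *Hoxd11*, *Hoxc5*, *March1* and *Tshz2* higher in all 3 lumbar/sacral libraries than in any other, and *Adcy8* overlaps.

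Between cervical and thoracic I3 nuclei limma called 0 of 9454 genes (0%), with 281 at an unadjusted p under 0.05, and also 0 with the block (739 at that p) and 0 of 9014 without the pair of male libraries (418). In simulated data of the same kind the first of these fits recovered 21.4% of 2-fold changes, so genes may differ without being called. The lowest p values, none of which passed, were those of *Gm27032*, *March3*, *Nhlrc2*, *A830018L16Rik* and *Creb5*, with a limma adjusted p of 0.996 each. *Hoxa9* had a log2 fold change of -0.47 ± 0.86, cervical minus thoracic, over all libraries and of -2.41 ± 0.42 without the pair of male libraries (limma adjusted p = 0.996 and 0.624).

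A further comparison asked whether the region difference of I3 was that of the other large clusters of the same libraries, by the difference of I3 from the mean of I1, I2 and I4 within a library. limma called 38 of 11324 genes (0.336%), 8 upwards and 30 downwards for I3 relative to the others in lumbar/sacral libraries, and 38 of 10917 without the pair of male libraries, of which 29 are among the first 38. Leaving out lumbar/sacral replicate 1, 2 or 3 left 21, 24 or 16 calls, and 0 were called (1077 at an unadjusted p under 0.05) with no filter on low values. Among I1 to I4 the largest shift between regions was that of I3 itself in 17 of the 38 genes, of I2 in 16, of I1 in 3 and of I4 in 2.

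*Vcan* is one in which I3 shifted most, at 85.1, 43.3 and 167 CPM in cervical, 79.7, 65.6 and 105 in thoracic and 43.0, 30.5 and 19.1 CPM in lumbar/sacral I3 sums, which lie below all others, if only just. I2 had 102 ± 31.3 CPM in the cervical and thoracic libraries and 113 ± 20.03 in lumbar/sacral ones, and I1 and I4 at most 5.42 CPM. The difference of differences was -1.26 ± 0.29 (limma adjusted p = 0.0353). *Prkd1*, a kinase activated by diacylglycerol, was at 9.62 to 39.4 CPM in the cervical and thoracic and 4.03, 7.27 and 2.12 CPM in the lumbar/sacral I3 sums. I1 and I2 stayed between 20.5 and 31.8 CPM, and I4 was at 12.9 ± 6.30 and 11.6 ± 8.88 CPM (-1.52 ± 0.35, limma adjusted p = 0.0368). Against I4 alone *Prkd1* did not pass (-1.32 ± 0.47, limma adjusted p = 0.623). *Adcy2*, *Slc1a2*, *Itga8* and *4930444A19Rik* also shifted most in I3. Without the pair of male libraries 9 of the 38 no longer passed (limma adjusted p in brackets): *Prkd1* (0.0572), *4930444A19Rik* (0.111), *Palld* (0.103), *Frem1* (0.0616), *Man1a* (0.0604), *Tmtc2* (0.0843), *Inpp4b* (0.0567), *Prr16* (0.0948) and *Dscaml1* (0.0954). Upwards, *Trpc5* was at 88.7 ± 27.4 and 165 ± 27.1 CPM in I3, with 244 ± 53.8 and 265 ± 51.8 in I4 (0.95 ± 0.17, limma adjusted p = 0.00417), and *Tmem132c* at 4.53 ± 3.06 and 15.6 ± 5.61 CPM in I3, with 82.2 ± 18.4 and 46.2 ± 11.2 in I2 (1.43 ± 0.24, limma adjusted p = 0.000993).

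*Kcnh7*, a potassium channel of the ERG type, is one in which I2 shifted most. It was at 154 ± 54.8 and 100 ± 41.3 CPM in I3 and at 132 ± 49.3 and 574 ± 167 CPM in I2, and the difference of differences was -1.25 ± 0.13 (limma adjusted p = 6.86e-07). *Cacna1e*, a calcium channel, was at 33.7 ± 10.0 and 13.6 ± 4.60 in I3 and at 45.0 ± 16.4 and 138 ± 20.3 CPM in I2. It was also called against I4 alone (-1.65 ± 0.37, limma adjusted p = 0.0365), a comparison that called 16 of 10533 genes (0.152%), 5 of the 38 among them: *Cacna1e*, *Inpp4b*, *Prr16*, *Chrm2* and *Unc5d*. Of the 38 genes, 8 were also called within I3 with the block (*Slc1a2*, *Htr1f*, *Plcl1*, *Adcy8*, *Bcl2*, *Zfp804a*, *Ebf1* and *Trpc5*), and both comparisons share their I3 sums. The direction was not the same in *Ebf1*, which rose within I3 (0.73 ± 0.14 with the block) and had a difference of differences of -0.53 ± 0.12, with shifts of 2.64 in I2 and 1.23 in I4. *Plcl1* shifted by -2.31 in I3 and -2.15 in I4, and against I4 alone it did not pass (-0.16 ± 0.28, limma adjusted p = 0.993).

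**Figure D5:**
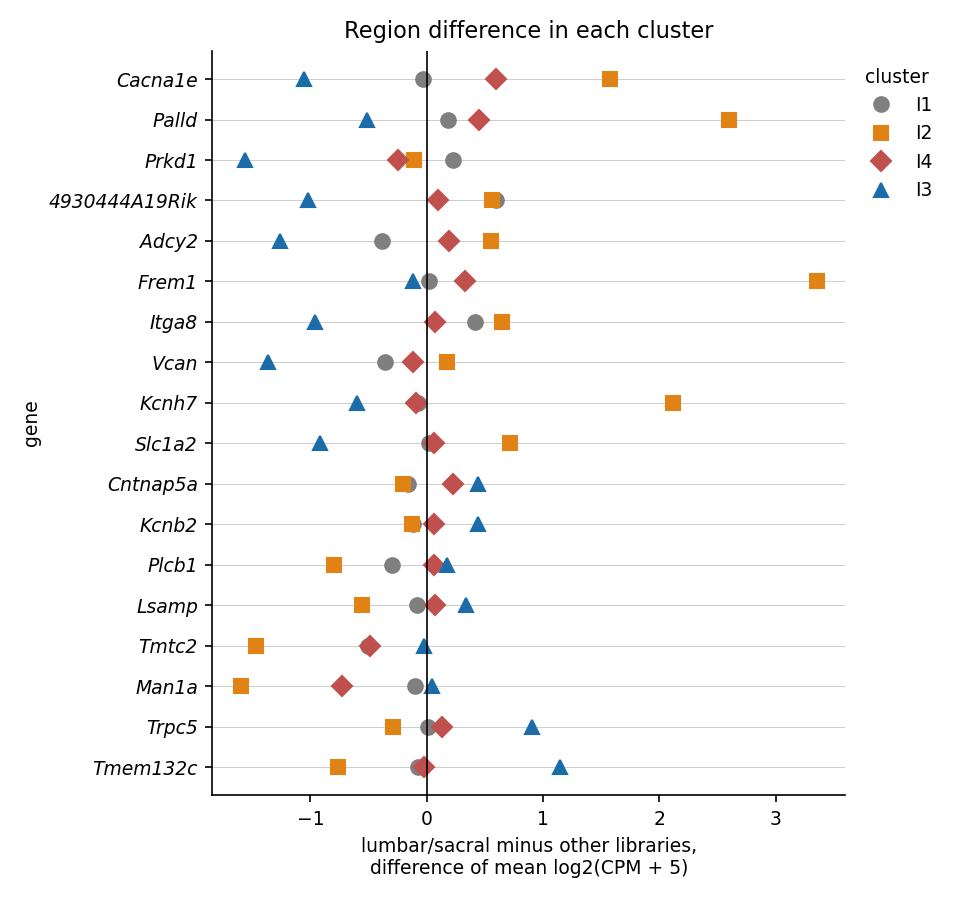
Lumbar/sacral minus the other libraries, as the difference of mean log2(CPM + 5), in I3 (triangle), I4 (diamond), I1 (circle) and I2 (square) for the 10 lowest and the 8 highest genes whose region difference in I3 differed from that of the mean of I1, I2 and I4. *Vcan*, *Prkd1* and *Adcy2* are set apart by the I3 triangle on the left, and *Palld*, *Frem1* and *Kcnh7* by the I2 square on the right.

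Between the male and the female pool, limma with a term for region called 7 of 9012 genes (0.0777%) in I3, each pool being 4 mice. *Xist*, the RNA of the inactive X, was at 2.40, 1.64 and 0 CPM in the male and 614, 835 and 851 CPM in the female libraries, in the order cervical, thoracic, lumbar/sacral. *Uty*, on the Y chromosome, was at 139, 167 and 121 CPM against 0, 2.28 and 0 CPM, and *Eif2s3y*, *Ddx3y* and *Kdm5d* followed it. The pools thus match their labels. The other 2 were *Pcsk1*, a prohormone convertase, at 310, 239 and 265 against 104, 100 and 91.3 CPM (log2 fold change 1.41 ± 0.17, limma adjusted p = 0.0345), and *Slc38a2*, an amino acid transporter, at 207, 369 and 304 against 94.7, 125 and 91.3 CPM (1.43 ± 0.18, adjusted p = 0.0467). The mixed pool lay with the females in both, at 86.4 to 130 and 45.6 to 102 CPM. The count changed with each library left out: it was 338 without cervical replicate 2, 281 without cervical replicate 3, 1 without thoracic replicate 2 or lumbar/sacral replicate 2 and 2 without thoracic replicate 3 or lumbar/sacral replicate 3. Each of these fits had 1 residual degree of freedom to estimate the spread, against 2 with all libraries. The other library of the same region is then fitted exactly, so these counts do not show the part of a single library.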

How the data were processed

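GFP+ nuclei of 9 libraries were sequenced by the authors with a droplet method of 10x Genomics. Alignment, per the labels and the study's methods, was by Cell Ranger 3.1.0 against mm10 (GRCm38) with introns counted, and normalization by SCTransform in Seurat. The deposited values are whole numbers made by that model and were treated as a score, not as a count of molecules, so count models were not run. DESeq2 is named among the authors' tools and was not used here. Clusters, regions and libraries come from the authors' label of each nucleus. No per-sample column was left unmapped (0).

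Corrected counts were summed per library and cluster with at least 10 nuclei and scaled to 1000000 (CPM). limma 3.58.1 (trend, R 4.3.3) was run on log2(CPM + 5) of genes that reached 10 CPM in 3 or more sums, and a gene was called where its Benjamini-Hochberg adjusted p was under 0.05. Clusters were compared within libraries without a test, a gene counting as apart at a log2 difference of 1. The lumbar/sacral contrast is against the mean of the cervical and thoracic means. Shares were compared by exact permutation tests, two-sided by construction, over the 9 libraries. The analysis was tested on simulated data first, with a spread set in advance, the same for all genes, and no pool effect apart from the changed genes. For lumbar/sacral against the rest, limma without the block recovered 40.9% of 2-fold and 92.6% of 4-fold changes. For cervical against thoracic it recovered 21.4% and 81.25%, and for male against female 19.8% and 87.5%. Doublets were called with Scrublet in each library on the corrected counts, 164 of 16042 nuclei (1.02%). For shares of nuclei, each nucleus was also thinned to 3500 corrected counts with the random seed 1, below which no I3 nucleus lay (0). The depth in raw counts is not known, and the SD is over libraries.

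Libraries of 1 replicate number come from the same mice, so the numbers pair the samples. Deviations of I3 sums from their region means correlated at -0.0975 to 0.673 (median 0.443) between libraries of the same number and at -0.588 to 0.374 (median -0.266) between others. Cervical replicate 3 did not go with its own number, at -0.0975 with thoracic and -0.00957 with lumbar/sacral replicate 3. With thoracic and lumbar/sacral replicate 1 it stood at 0.278 and 0.269. The block may thus describe this library less well, which was not tested. P values measure the spread between libraries of pooled mice.

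Genes were named by a rule: per comparison the largest gaps or folds with 1 sign in all libraries (15 higher and 10 lower against all clusters, 8 and 8 against I4), up to 10 and 10 called genes by region, the 5 lowest p values where none was called, and for each gene list the 3 highest and the 4 most different members. *Hoxa9*, *Hoxc5* and the other genes called only with the block, and members on the full lists of 12 and 16 with a sign that was not the same in all libraries, stand outside it and were named after their values were seen. The cluster, the gene lists and the comparisons were chosen with earlier results of these data known. Coordinates are from GENCODE vM21, and alternatives are described at the end. Sums, shares and permutations were computed in Python 3.11.15 (scipy 1.17.1, scanpy 1.11.5).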

Additional observations from a re-analysis of the deposited data

Results flagged for a closer look

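The difference between regions in I3 departed from that in the mean of I1, I2 and I4 in 38 genes, 5 of which were also called against I4 alone. This was limma's test of the difference itself, which is what set these results apart. By the rule on named genes the lowest were *Cacna1e* at -1.77, *Palld* at -1.59, *Prkd1* at -1.52, *4930444A19Rik* at -1.43, *Adcy2* at -1.38, *Frem1* at -1.35, *Itga8* at -1.34, *Vcan* at -1.26, *Kcnh7* at -1.25 and *Slc1a2* at -1.19 (log2, lumbar/sacral minus the other libraries, I3 minus the mean of the other 3 clusters). The highest were *Tmem132c* at 1.43, *Trpc5* at 0.95, *Man1a* at 0.85, *Tmtc2* at 0.79, *Lsamp* at 0.53, *Plcb1* at 0.52, *Kcnb2* at 0.50 and *Cntnap5a* at 0.49.

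In *Frem1* and *Palld* the I3 sums were at most 11.4 CPM in every library and I2 shifted most, with 0.181 and 47.9 CPM of *Frem1* in the cervical and thoracic and in the lumbar/sacral libraries. In *Man1a* and *Tmtc2* I3 was also alike in both (10.7 and 11.3 CPM, 34.5 and 32.6 CPM), and I2 was not (286 and 88.9 CPM, 251 and 87.2 CPM). Without the pair of male libraries these 4 genes did not pass (limma adjusted p = 0.0616, 0.103, 0.0604 and 0.0843).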

How the results depend on the processing

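The count of genes called by region in I3 was 0 as reported and 0 with each library left out. It was 2 with no filter on low values, 16 with the replicate block and 1 with the block but without the pair of male libraries, and the block changed no other call count by more than 1.5 times. For the share of cholinergic nuclei (2.49 points, lumbar/sacral minus the others), the exact permutation test of the 3 regions missed 0.05 with the replicate block (2.49 points, p = 0.0833), without the pair of male libraries (2.55, p = 0.0571) and with I1 to I4 as denominator (0.174, p = 0.979). The exact test of that difference itself passed, also with the block (p = 0.0119 and 0.037). Each library left out gave 2.04 to 2.89 points. The share of interneuron nuclei, 2.05 points, turned to -4.24 with I3 and I4 as denominator and ran from 1.39 to 2.71 with each library left out. The pool comparison called 7 genes, but 11 with median of ratios scaling, 87 with no filter, 11 with no region term, 0 where every sum had to hold 10 corrected counts (555 at an unadjusted p under 0.05), 3 with a pseudocount of 1 and 1 to 338 with each library left out. Without the pair of male libraries it could not be fitted. The 38 genes of the comparison with other clusters became 16 against I4 alone, 15 against I1 and I4, 0 with no filter, 22 where every sum had to hold 10 corrected counts, 22 with a pseudocount of 1 and 16 to 43 with each library left out. Signs turned in *Gm32647* (0.0635 against I1 and I4), *Asic2* (0.0654 against I4 alone), *Nos1* (0.20 and 0.13 against I4 alone and against I1 and I4) and *Ebf1* (0.15 against I1 and I4). Cluster counts rested on the pseudocount. Of 12 higher, 16 lower and 203 genes apart from I4, a pseudocount of 1 made 25, 43 and 580 and one of 20 made 3, 5 and 93, while leaving out libraries gave 9 to 14, 11 to 19 and 196 to 214. The causes were not tested. Alternatives without the pair of male libraries, the block without them, I3 against I4 or I1 and I4, no region term, I3 and I4 as denominator and the test of lumbar/sacral shares against all others were chosen after seeing the data. Shares of I3 nuclei with a gene depend on depth: thinning moved *Pax2* from 79.3 to 60.7% and *Chat* from 63.8 to 42.5%.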

Other observations

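*Slc6a5*, *Pnoc* and *Bdnf* were looked at between pools after their values in I3 were seen. *Pnoc* was at 88.9, 107 and 94.6 CPM in the libraries labelled cervical, thoracic and lumbar/sacral of the male pool, then 26.8, 41.0 and 42.5 CPM for the female and 47.7, 52.5 and 26.9 CPM for the mixed mice. *Bdnf* was at 111, 83.7 and 66.9 CPM in the male, 45.8, 22.8 and 38.2 in the female and 49.8, 55.9 and 53.8 CPM in the mixed pool. Both were higher in the 3 male libraries than in the other 6, as was *Slc6a5*. Male minus female, the log2 fold changes were 1.30 ± 0.23 for *Pnoc*, 1.199 ± 0.26 for *Bdnf* and 0.84 ± 0.17 for *Slc6a5*, and none passed (limma adjusted p = 0.17, 0.319 and 0.316). The male libraries also had 0.156 to 0.542% of mitochondrial counts in I3, the female ones 0.189 to 0.403% and the mixed ones 0.0446 to 0.135%. The part of sex, pool or library in these values cannot be told apart.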
